A study of Drosophila melanogaster with 10 samples.

Results

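The genes described here are oc, Vsx1, tup and Poxm, 4 regulators of head, neuron and muscle identity, taken by symbol from a table of 7624 genes, in which all 4 have a row. oc, also called orthodenticle, encodes a paired-class homeodomain protein needed for the fly head and, later, for photoreceptor genes, and is the fly counterpart of the vertebrate Otx genes. Vsx1 encodes a paired-class homeodomain protein that marks a territory of the developing optic lobe, and tup, or tailup, encodes the LIM homeodomain protein of the Islet type, which acts in motor neurons, the notum and the heart. Poxm, or pox meso, encodes a paired-box protein without a homeodomain that acts in the mesoderm and in muscle founders, so the working name "homeodomain regulators" describes 3 of the 4.

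Genes of this kind are classical examples of Polycomb silencing. Polycomb repressive complex 1 (PRC1), which contains Polyhomeotic (Ph), Sce (the fly RING1 protein) and Polycomb (Pc), holds developmental regulators inactive in cells that do not need them. A gene can be read at the stage of synthesis, as nascent RNA bound to chromatin, or as accumulated total RNA, and the pair of readouts is available for each of the 4 genes.

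All libraries came from ML-DmBG3-c2 cells, a Drosophila melanogaster line of larval central nervous system origin kept in medium with insulin. The 10 nascent RNA libraries were made after mock treatment (3 libraries), Ph RNAi (3) or Sce RNAi (4), with RNAi done by adding double-stranded RNA to the cells. The labels do not say whether replicates came from separate cultures, so the p-values may measure technical spread. The values at hand were the authors' mean nascent signal of each group and the authors' ratios to mock, with p and q, in nascent RNA (Ph and Sce RNAi) and total RNA (Ph, Sce and Pc RNAi). Total RNA was measured in libraries outside these 10, and the levels behind its ratios are not used here.

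The 3 nascent columns had nearly equal sums, from 191793598 to 192278102 signal units, so a change in overall transcription cannot be seen. The depth of each library is unknown, and no value per library or error of a mean was given. The authors' p and q are therefore the only guide to spread between libraries, although the test behind them is not known. The words rose and fell are kept for genes whose q was under 0.05. In the authors' deposited table the targeted genes were higher, not lower, in nascent RNA under their own labels, with ph-p at a ratio of 4.87 (q 0.012), ph-d at 5.39 (q 0.053) and Sce at 118 (q 0.377), so that of these ph-p alone passed. In total RNA under their own labels ph-p stood at 8.64 (q 0.017) and ph-d at 8.09 (q 0.028), both passing, per the authors' deposited table. Sce stood at 27.0 (q 0.198) and Pc at 21.5 (q 0.13) in total RNA under theirs, in the authors' deposited table. For this reason each group is named by its label (the libraries labelled Ph RNAi, for example), and every direction below rests on those labels.

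In mock cells the 4 regulators were among the least transcribed genes of the table. The authors' mock mean was 246 signal units for oc, 295 for Vsx1, 353 for tup and 1014 for Poxm, where the median gene had 4447. Levels of different genes can be compared only per length, so the means were divided by the length of the gene model in the BDGP6 annotation, although the sources used here do not give the region the authors counted. On that scale oc had 12.0 units per kb in mock cells, Vsx1 15.9, tup 16.2 and Poxm 68.7. Of the 7493 genes with a matched model, 0.921% lay below oc, 1.25% below Vsx1, 1.28% below tup and 3.84% below Poxm, and the median gene had 1564 units per kb. Without values per library it cannot be said whether oc, Vsx1 and tup differed from one another.

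**Figure D1:**
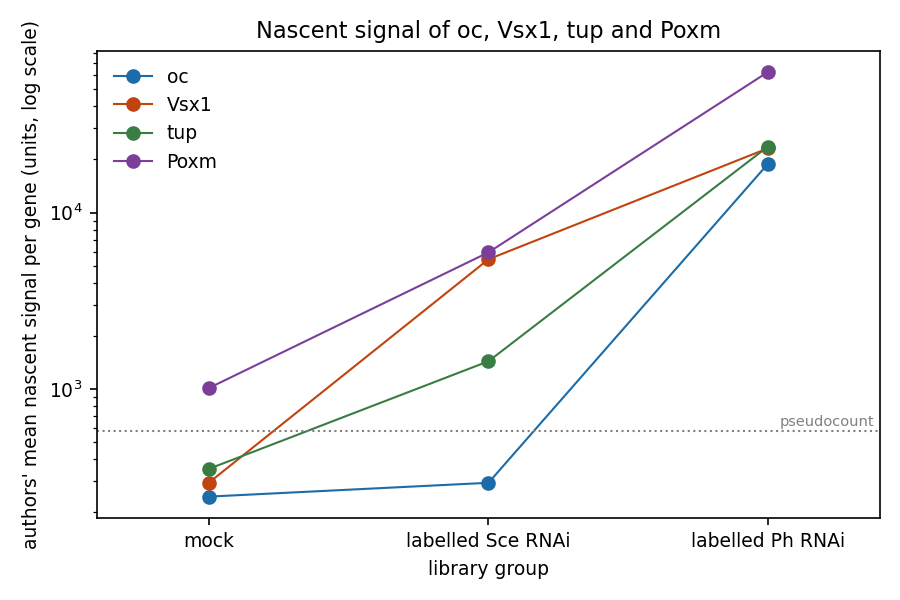
Authors' mean nascent signal per gene (vertical, log scale) for oc, Vsx1, tup and Poxm in the mock group and the libraries labelled Sce RNAi and Ph RNAi; each point is 1 group mean with no error available, lines only join the points of a gene, and the dotted line is the pseudocount of 581 units. All 4 genes are highest in the libraries labelled Ph RNAi, while in those labelled Sce RNAi they range from 294 units for oc to 5949 for Poxm.

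The first comparison asked how nascent transcription of the 4 genes changed in the libraries labelled Ph RNAi. oc rose from a mean of 246 to 18886 signal units, 76.8-fold, with a q of 0.021, per the authors' deposited table. Vsx1 rose from 295 to 23130, 78.4-fold, with a q of 0.029, per the authors' deposited table. tup rose from 353 to 23669, 67.0-fold, with a q of 0.034, per the authors' deposited table. Poxm had the highest level of the 4 on both sides of the comparison, 1014 in mock and 62577 in the libraries labelled Ph RNAi, a quotient of 61.7, but with a p of 0.036 and a q of 0.173, per the authors' deposited table, it did not pass. The quotients of the 4 genes thus lay within a 1.27-fold range, and they stood at places 9, 10, 15 and 17 among the ratios of all 7624 genes, for Vsx1, oc, tup and Poxm.

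The count of 3 of 4 genes higher stands beside 1.69% of all genes called higher in the same comparison, where the median ratio of all genes was 1.02. The members were chosen with these results known, so nothing is read from that contrast or from the narrow range of their quotients. A rise of this kind can come from more cells that transcribe the gene or from more RNA per cell, which cannot be told apart in bulk samples. The mock means of oc, Vsx1 and tup lay under 581 units, the 10th percentile of the nascent means. With that value added to each mean as a pseudocount, the log2 ratio was 4.56 for oc, 4.76 for Vsx1, 4.70 for tup and 5.31 for Poxm, so that Poxm came first instead of last.

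The level reached after Ph RNAi was ordinary rather than high for 3 of the genes. Per kb of gene model oc had 920 signal units in the libraries labelled Ph RNAi, tup 1088 and Vsx1 1243, below the 1601 units of the median gene. Of the genes with a model, 30.6% lay below oc, 35.8% below tup and 40.0% below Vsx1. Poxm reached 4237 units per kb, above 82.8% of the genes. The order per kb was thus the same as in mock cells at its ends, with oc lowest and Poxm highest, while the differences among oc, tup and Vsx1 could not be set against any spread.

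**Figure D2:**
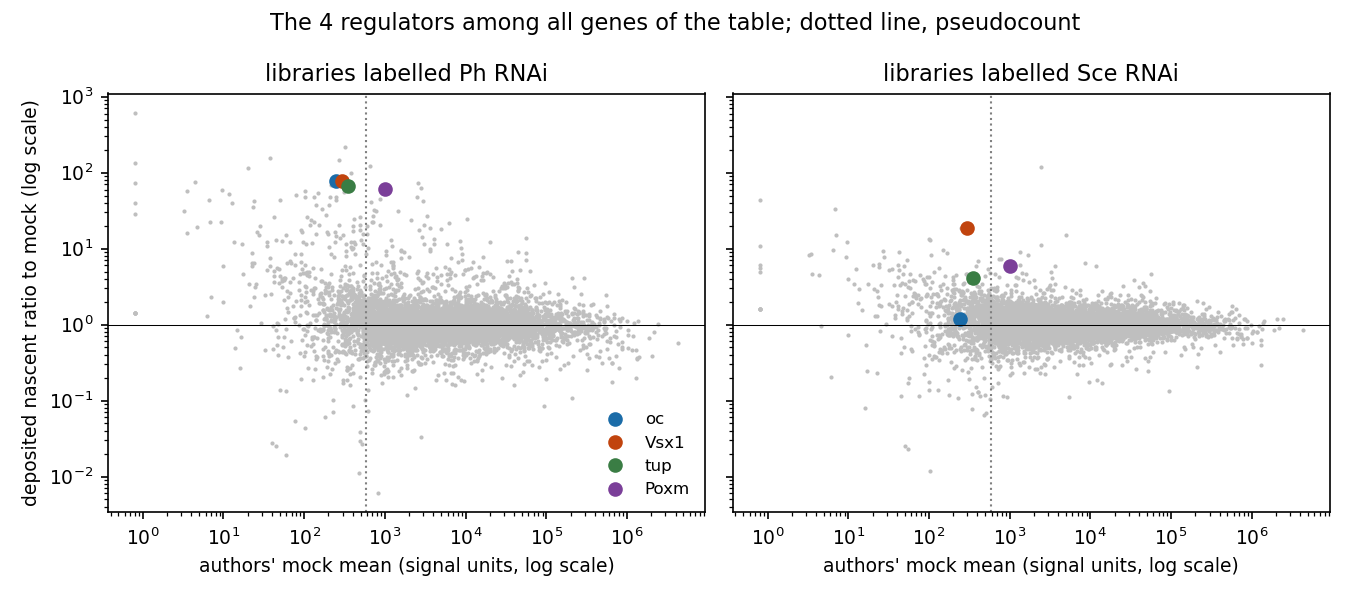
Authors' deposited nascent ratio to mock (vertical, log scale) against the authors' mock mean in signal units (horizontal, log scale) for all 7624 genes (grey) and the 4 regulators (colour), in the libraries labelled Ph RNAi (left) and Sce RNAi (right); the dotted line is the pseudocount of 581 units. The 4 regulators, chosen with earlier results of these data known, lie close together at ratios of 61.7 to 78.4 on the left and apart, from 1.20 to 18.4, on the right.

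The second comparison asked the same of the libraries labelled Sce RNAi, in which the 4 genes gave unlike values and none passed the threshold. oc had close means of 246 and 294 signal units, a quotient of 1.20 and a q of 0.754, per the authors' deposited table. Vsx1 had means of 295 and 5436, a quotient of 18.4 that was the sixth highest ratio of the table, and a q of 0.295, per the authors' deposited table. tup had means of 353 and 1437, a quotient of 4.07 and a q of 0.218, per the authors' deposited table. Poxm had means of 1014 and 5949, a quotient of 5.87 and a q of 0.3, per the authors' deposited table.

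At an unadjusted p under 0.05, 3 of the 4 genes were higher in the authors' deposited table, Vsx1 with 0.013, tup with 0.006 and Poxm with 0.015, beside 4.62% of all genes. At q under 0.05 the count was 0 of 4, beside 0.0656% of all genes called higher, or 5 genes in all, so a miss at this threshold does not show that the 3 genes did not change. The quotients were spread over a 15.4-fold range, beside the 1.27-fold range above. Because the members were chosen with results known, nothing is read from that contrast of ranges. With the pseudocount the log2 ratios were 0.08 for oc, 1.11 for tup, 2.03 for Poxm and 2.78 for Vsx1, beside 4.56 to 5.31 in the libraries labelled Ph RNAi. The comparisons share the mock libraries, so a low mock mean raises both quotients of a gene together.

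The mock mean drops out when the RNAi groups are set side by side. The mean in the libraries labelled Ph RNAi was 64.2 times that in the libraries labelled Sce RNAi for oc, 16.5 times for tup, 10.5 times for Poxm and 4.25 times for Vsx1. Per kb of gene model, oc and Vsx1 had 12.0 and 15.9 signal units in mock, 920 and 1243 in the libraries labelled Ph RNAi, and 14.3 and 292 in those labelled Sce RNAi. The authors' deposited table gives no test of one RNAi group against the other, and without values per library the differences were not tested.

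**Figure D3:**
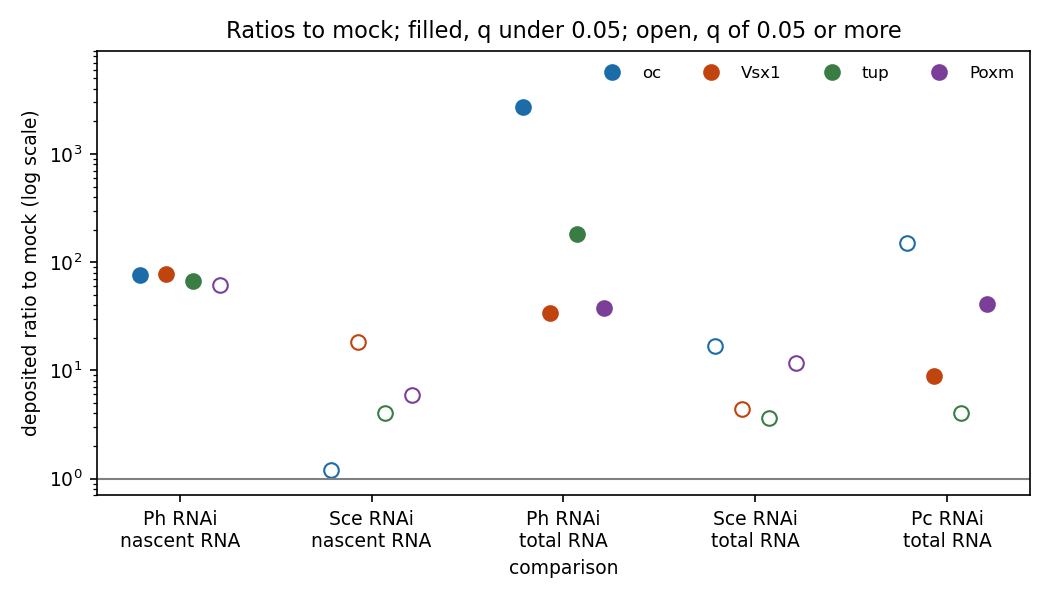
Authors' deposited ratio to mock (vertical, log scale) of oc, Vsx1, tup and Poxm in the 5 comparisons (horizontal); filled points have q under 0.05 and open points do not, and the line marks a ratio of 1. All points lie above 1; 3 are filled in nascent RNA and 4 in total RNA for the label Ph RNAi, 0 for Sce RNAi in either readout, and 2 for Pc RNAi.

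Total RNA was compared by the authors after the same RNAi treatments and, in addition, after Pc RNAi. In the libraries labelled Ph RNAi all 4 genes were higher at q under 0.05, per the authors' deposited table, beside 3.52% of all genes. oc had a total RNA ratio of 2699, the sixth highest of the table, with a q of 0.003, per the authors' deposited table. tup followed at 181.8 with a q of 0.005, per the authors' deposited table. Poxm had a ratio of 38.1 with a q of 0.007, and Vsx1 had 33.9 with a q listed at 0, which stands for a value under 0.0005, in the authors' deposited table. The total RNA ratios were therefore spread over a 79.7-fold range, with oc far above Vsx1, whereas the same genes differed little in their nascent ratios. Nothing is read from that difference in range, since the members were chosen with results known. A ratio as large as that of oc depends on the mock level in its denominator, which is not used here.

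Poxm, which did not pass in nascent RNA, did so in total RNA, and the direction was the same in both readouts. The nascent and total RNA ratios come from different libraries, and the difference between readouts was not tested for any of the 4 genes.

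In total RNA of the libraries labelled Sce RNAi, 0 of 4 genes passed at q under 0.05, beside 0.236% of all genes called higher. The ratios in the authors' deposited table were 17.0 for oc with a q of 0.198, 11.7 for Poxm with 0.121, 4.41 for Vsx1 with 0.164 and 3.62 for tup with 0.36. At an unadjusted p under 0.05 oc, Vsx1 and Poxm were higher in the authors' deposited table, with p of 0.008, 0.003 and 0.001, beside 9.27% of all genes. oc thus had the highest of the 4 ratios in total RNA and the lowest, 1.20, in nascent RNA under the same label.

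In total RNA of the libraries labelled Pc RNAi, 2 of 4 genes rose, beside 3.04% of all genes called higher. Poxm rose 41.2-fold, with a q listed at 0, and Vsx1 rose 8.81-fold, with a q of 0.004, per the authors' deposited table. oc had a ratio of 150.7 with a q of 0.065, and tup had 4.00 with a q of 0.228, per the authors' deposited table, so neither passed. Set beside the total RNA ratios for Ph RNAi, Poxm was at 41.2 against 38.1, Vsx1 at 8.81 against 33.9, oc at 150.7 against 2699 and tup at 4.00 against 181.8. Those ratios have the mock level of the table in common, and the differences between labels were not tested.

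The gene models bear on what a signal per gene can contain. In the BDGP6 annotation oc and Vsx1 lie on chromosome X, tup on 2L and Poxm on 3R, with lengths of 20.5, 18.6, 21.8 and 14.8 kb, of which 24.6%, 19.5%, 15.2% and 17.4% are exon. No other gene model overlaps oc or Vsx1. The tup model holds the microRNA gene mir-4946 and a further noncoding entry on its own strand, and neither has a row in the table. The Poxm model is covered over 14.96% of its length by Ctr1B, Or85a and CG7443 on the opposite strand, none with a row in the table, and the sources used here do not say whether counting used strand, so the origin of the Poxm signal over that stretch is uncertain.

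The nearest genes with a row that are reported here had ratios far below those of the regulators. Genes without a row and a withheld item were passed over, so these need not be the adjacent genes. Their models lay from 0.259 to 75.5 kb away, the farthest being CG12730 near Vsx1. Of these 15 genes, up to 2 on each side within 100 kb, 0 had q under 0.05 in the nascent comparison labelled Ph RNAi in the authors' deposited table. Their ratios ran from 0.731 to 1.80 with a median of 1.19. CG10602 and mRpL13, whose models end 0.259 kb from that of tup, had ratios of 0.992 and 1.14 in the authors' deposited table. Coq2, which lies 2.48 kb from Poxm and encodes an enzyme of coenzyme Q synthesis, had 1.24, and RhoGAP5A, 3.71 kb from Vsx1, had 1.19 in the authors' deposited table. Around oc the nearest genes with a row lay 23.9 to 30.6 kb away. They were Caf1-180, a chromatin assembly factor gene, at 0.972 and Crag at 1.48 on one side, and CG12772 at 0.927 and CG11284 at 1.23 on the other, in the authors' deposited table. At an unadjusted p under 0.05, 1 of the 15, Mlc-c, was higher in the authors' deposited table, beside 9.82% of all genes, and 1, ssp3, was lower at a ratio of 0.797.

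**Figure D4:**
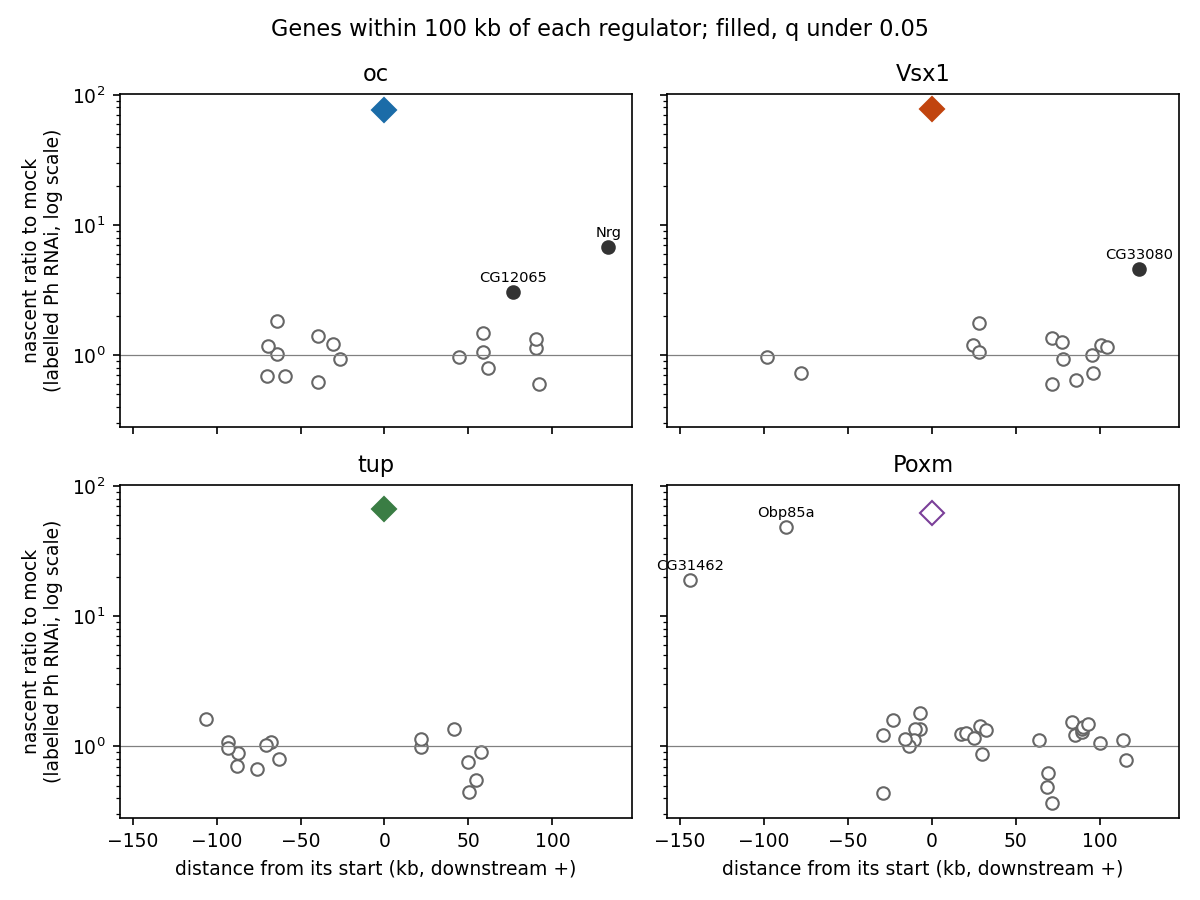
Nascent ratio to mock in the libraries labelled Ph RNAi from the authors' deposited table (vertical, log scale) against the distance between gene starts in kb (horizontal, positive downstream of the regulator) for the genes reported here whose models lie within 100 kb of oc, Vsx1, tup or Poxm; the diamond is the regulator, filled symbols have q under 0.05, and genes above a ratio of 2.5 are named. Most neighbours lie near a ratio of 1 beside regulators at 61.7 to 78.4, with a few genes between.

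The 4 regulators were next set among lists of related genes, which were written with earlier results of these data known. The list of paired-class homeobox and paired-box genes as used here held 6 genes with a row, oc, Vsx1 and Poxm and 3 others. In nascent RNA labelled Ph RNAi none of those 3 passed, while the authors' deposited table has all 3 higher at an unadjusted p under 0.05, beside 9.82% of all genes. They were unc-4, a gene of motor and sensory neurons, at 15.6 with a q of 0.14, Gsc, the goosecoid gene, at 14.98 with 0.053 and repo, a homeobox gene of glia, at 14.3 with 0.127 in the authors' deposited table. In total RNA labelled Ph RNAi all 6 genes of the list rose in the authors' deposited table, beside 3.52% of all genes called higher. There unc-4 was at 1314, Gsc at 80.1 and repo at 54.0. The median nascent ratio of the 3 other genes was 14.98, and 38.7 with oc, Vsx1 and Poxm included, beside 1.02 over all genes.

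The list of head and eye regulators held 17 genes with a row, of which 7 rose and 0 fell in nascent RNA labelled Ph RNAi in the authors' deposited table. Of all genes 1.69% were called higher and 0.787% lower in that comparison. Beside oc, Vsx1 and tup, the 4 that rose were bi (98.2-fold), a T-box gene, mirr (18.3-fold), an Iroquois gene, dac (15.8-fold), which acts in the retinal determination network, and tsh (7.48-fold), a zinc finger gene of trunk and eye, in the authors' deposited table. The model of bi is covered over its whole length by an antisense RNA gene, so the origin of its signal is uncertain. Optix, an eye homeobox gene, had a ratio of 68.7 with a q of 0.15, per the authors' deposited table. slp1, a forkhead gene of head segmentation, had 8.47 with a q of 0.196, per the authors' deposited table. hth and Lim1 were at 0.502 and 0.361 with q of 0.057 and 0.096, per the authors' deposited table, from mock means of 867613 and 592137 signal units. The median ratio of the 14 genes other than oc, Vsx1 and tup was 7.97, and 13.0 with them.

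Among 9 LIM homeodomain, cofactor and motor neuron genes with a row, tup was the 1 that rose in nascent RNA labelled Ph RNAi in the authors' deposited table, and 0 fell. Of all genes 1.69% were called higher there. vvl, a POU gene, was at 116 with a q of 0.074, Dr, a muscle segment homeobox gene, at 58.1 with 0.185 and ap, the LIM homeodomain gene apterous, at 8.40 with 0.094 in the authors' deposited table. Their mock means of 20.1, 103 and 216 signal units lay under the pseudocount. Lim1 and Bx went the other way, at 0.361 with a q of 0.096 and 0.58 with 0.077, neither passing, in the authors' deposited table. At an unadjusted p under 0.05, 4 of the 8 genes other than tup were higher, beside 9.82% of all genes, and 2 were lower. Chi, which encodes the shared cofactor of LIM homeodomain proteins, was transcribed in mock cells at 5676 units and had a ratio of 1.30 with a q of 0.29, per the authors' deposited table. In total RNA labelled Ph RNAi 4 of the 9 rose in the authors' deposited table, beside 3.52% of all genes called higher. These were tup, vvl, ap and Dr, with ratios of 181.8, 34.4, 801.5 and 45.9. The median nascent ratio was 4.85 for the 8 genes other than tup and 8.40 with it.

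For muscle and mesoderm regulators 12 genes had a row, and the median nascent ratio in the libraries labelled Ph RNAi was 1.18 for the 10 genes other than tup and Poxm and 1.65 with them. tup was again the 1 that rose, and 0 fell, in the authors' deposited table, beside 1.69% of all genes called higher. At an unadjusted p under 0.05, 4 of the other 10 genes were higher there, beside 9.82% of all genes, and 1 was lower. Dr was at 58.1 with a q of 0.185 and ap at 8.40 with 0.094, both from mock means under the pseudocount. The lower gene, pnr, was at 0.659 with a q of 0.076. Mef2, which activates muscle structural genes and had a mock mean of 202283 signal units, had a ratio of 0.83 with a q of 0.209, per the authors' deposited table. twi, the mesoderm regulator twist, had means of 101 in mock and 204 in the libraries labelled Ph RNAi, with a q of 0.452, per the authors' deposited table, and other genes cover 60.8% of its model. In total RNA labelled Ph RNAi twi rose, at a ratio of 30.1 with a q of 0.03, and with it 6 of the 12 genes rose, per the authors' deposited table. Of all genes 3.52% were called higher in that comparison.

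**Figure D5:**
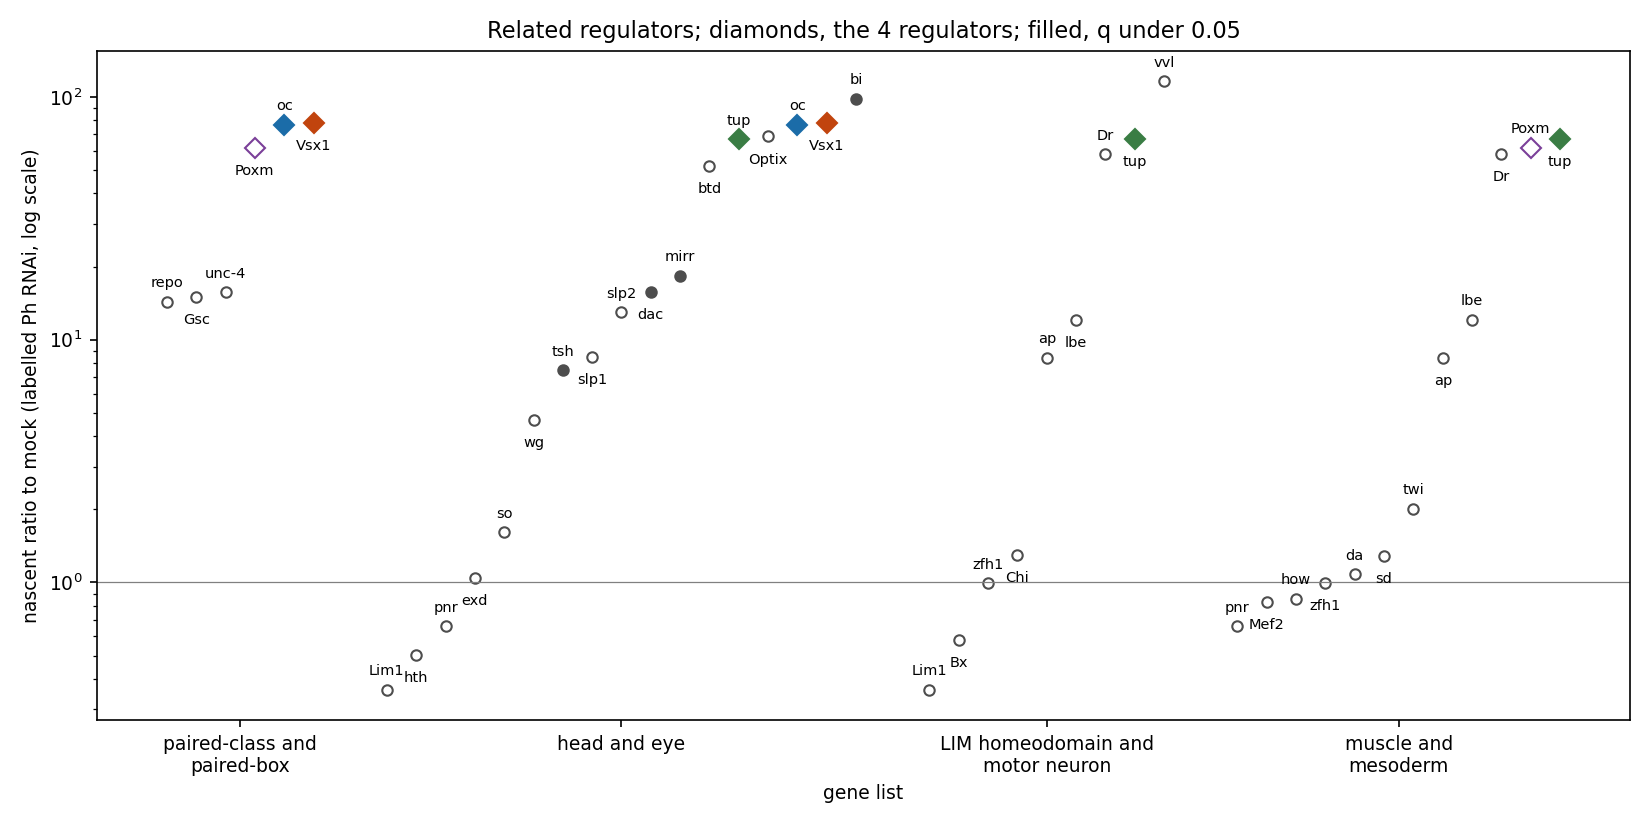
Nascent ratio to mock in the libraries labelled Ph RNAi from the authors' deposited table (vertical, log scale) for the genes reported here in 4 lists of related regulators (horizontal, genes sorted by ratio within a list; a gene can stand in more than 1 list); diamonds are oc, Vsx1, tup and Poxm, and filled symbols have q under 0.05. The head and eye list runs from Lim1 at 0.361 to bi at 98.2, and the muscle list holds a group of genes near a ratio of 1 below Dr, Poxm and tup.

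In nascent RNA labelled Sce RNAi 0 genes of these 4 lists rose in the authors' deposited table, and 0 fell, beside 0.0656% of all genes called higher. Without the 4 regulators the list medians were 0.945, 1.71, 1.21 and 1.03 in the order given, beside 1.01 over all genes, and with them 1.63, 1.90, 1.26 and 1.14. The regulators were chosen with results known, so nothing is read from the change in these medians. The 0.945 of the paired-class list is the value of Gsc, with means of 60.1 in mock and 56.8 in the libraries labelled Sce RNAi, under the pseudocount. By unadjusted p under 0.05, the authors' deposited table has 0 of 3, 3 of 14, 1 of 8 and 1 of 10 of the other genes higher, beside 4.62% of all genes. At the same threshold hth (ratio 0.672, p 0.001) and Lim1 (0.542, p 0.004) were lower in the authors' deposited table. After Pc RNAi, in total RNA, 2 of 3, 3 of 14, 2 of 8 and 1 of 10 of the other genes rose in the authors' deposited table, beside 3.04% of all genes.

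Markers of cell types in which the regulators normally act, and of blood cells, were followed beside these values. The neuronal markers elav and Rbp9, 2 of 7 with a row, summed to 10010 signal units in mock, 11110 in the libraries labelled Ph RNAi and 9329 in those labelled Sce RNAi, and neither passed in the authors' deposited table, where 2.48% of all genes were called in either direction. The glial list, 5 of 6 with a row, summed to 98636, 224930 and 120087 in the same order. In nascent RNA labelled Ph RNAi nrv2, a sodium pump subunit gene, was the 1 that rose, 4.64-fold, in the authors' deposited table. At an unadjusted p under 0.05, 3 of the 5 were higher there, beside 9.82% of all genes. In total RNA labelled Ph RNAi repo rose 54.0-fold (q 0.004) and nrv2 2.10-fold (q 0.015), beside 3.52% of all genes called higher. For Pc RNAi repo rose 5.38-fold (q 0.008), beside 3.04%. Neural stem cell genes, 3 of 6 with a row, summed to 33811, 129326 and 51595, and 0 passed in nascent RNA in the authors' deposited table. In nascent RNA labelled Ph RNAi 2 of 3 were higher at an unadjusted p under 0.05, beside 9.82% of all genes. In total RNA pros rose, 29.3-fold for Ph RNAi (q 0.023) and 37.0-fold for Pc RNAi (q listed at 0), in the authors' deposited table. Other gene models cover 98.6% of elav, which had 9594 of the neuronal units in mock, 59.2% of insc and 41.7% of the blood marker srp, and the whole of moody and mira, so these sums may hold signal of other genes. The muscle list, 5 of 12 with a row, summed to 612002, 688243 and 605681. In nascent RNA 0 of 5 were past q and 0 past an unadjusted p under 0.05, per the authors' deposited table. Act57B, a muscle actin gene, had means of 0.8, 58.5 and 34.9 in the same order. Photoreceptor markers, 2 of 6 with a row, summed to 79248, 70975 and 77650. Blood cell markers, 5 of 6 with a row, summed to 2197697, 820882 and 2216247. In nascent RNA labelled Ph RNAi Ppn was the 1 that fell, to a ratio of 0.313, in the authors' deposited table. Most of that mock sum came from vkg and Ppn, with mock means of 1415310 and 656683, so the sums mainly describe them. In nascent RNA labelled Ph RNAi vkg was at 0.374, Pxn at 0.716, srp at 0.665 and Hml at 1.40, none passing, per the authors' deposited table. Their unadjusted p in that comparison were 0.003, 0.41, 0.007 and 0.375 in the same order. In total RNA labelled Pc RNAi vkg rose 2.55-fold with a q of 0.038, beside 3.04% of all genes called higher. None of the listed markers with a row had a nascent mean of 0, and nothing can be said of those without a row. The part of the markers in the values of the 4 regulators was not tested.

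For each regulator the 3 genes most alike were those at the smallest Euclidean distance over the 5 log2 ratios to mock, among the 6942 genes above the pseudocount. The measure covers 5 comparisons that share mock libraries within each readout, so it is a description. For oc they were msa at a distance of 1.65, Picot at 1.86 and CG34340 at 2.26. The msa model is covered over 72.5% of its length by other genes, so the origin of its signal is uncertain, and in nascent RNA labelled Ph RNAi it rose 41.3-fold in the authors' deposited table. Picot, a phosphate transporter gene, was at 43.4 (q 0.056, not passing) in that comparison and at 1773 in total RNA in the authors' deposited table, a pair of values close in pattern to those of oc. For Vsx1 they were zfh2, a zinc finger homeobox gene, at 1.60, CG17181 at 1.71 and cpo (couch potato), whose RNA-binding product acts in the nervous system, at 1.74. In the libraries labelled Sce RNAi zfh2 and cpo rose 11.3-fold and 4.97-fold in nascent RNA in the authors' deposited table, where Vsx1 did not pass.

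For tup the nearest genes were Lapsyn at a distance of 2.11, dpp, the BMP ligand gene, at 2.15 and CG42741, whose model lies wholly within twi on the opposite strand, at 2.54. For Poxm they were CG33993 at 1.67, fus, an RNA-binding protein gene, at 2.29 and Dr at 2.47. Among themselves the 4 regulators were less close than the 3 genes named for each, as any gene outside the nearest 3 must be. Poxm and Vsx1 were at a distance of 2.80, Vsx1 and tup at 3.17, and tup and Poxm at 4.53. oc stood farthest off, at 6.78 from Poxm, 6.97 from tup and 8.23 from Vsx1.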

How the data were processed

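Nascent RNA was prepared from chromatin, with uncapped and polyadenylated RNA depleted, and sequenced on Ion Torrent libraries, per the labels' protocols. SAMtools and bedtools are named in the submitters' processing notes; the sources used here do not give the aligner, the build or the authors' test. The nascent values are group means of signal per gene made by the authors, per the file headers. The deposited ratio to mock, p-value and q-value have 3 decimals. Nascent ratios and quotients of the means matched for 100.0% of genes (tolerance 1% plus 0.001). A further 4 columns of means match no sample and were not used.

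Quotients, percentiles and log2 ratios with a pseudocount of 581 (the 10th percentile of the nascent means) were computed with Python 3.11.15 and pandas 2.3.3, with the arithmetic tested on simulated data. No test across libraries could be run on group means, so the planned fit of values per library was not made. Symbols were matched to Ensembl release 115 gene models of BDGP6 (7493 of 7624) by name or unique RefSeq synonym. Since the authors' build is not known, no coordinates are given.

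The members, gene lists and naming rule were chosen with earlier results of these data known. Named were the 4 regulators, their 3 most alike genes each, 2 neighbours on each side within 100 kb, and of each list the genes with q under 0.05 in nascent RNA plus up to 3 others with the largest absolute log2 ratio, besides ph-p, ph-d and Sce. Gsc, Chi, Bx, hth, pnr, twi, moody, Act57B, Hml and neighbours named in the closing section were chosen after their values were seen. Alternatives were other pseudocounts, scalings, q thresholds and adjustments. A withheld item is not reported here, and counts of neighbours and list genes are without it.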

Additional observations from a re-analysis of the deposited data

How the results depend on the processing

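Under 5 other settings (a pseudocount 10 times larger or smaller, none, quantile normalization and median centring) all 40 recomputed log2 ratios of the 4 regulators kept their direction. A change of pseudocount cannot reverse a direction, so only quantile normalization and median centring could have done so. After Ph RNAi they ran from 2.03 to 6.26 for oc, 2.25 to 6.29 for Vsx1, 2.26 to 6.07 for tup and 3.33 to 5.95 for Poxm, and after Sce RNAi from 0.012 to 0.26, 0.88 to 4.20, 0.23 to 2.02 and 0.79 to 2.55 in the same order; the low end is the larger pseudocount. Counts of members called stayed at 3 and 0 in nascent RNA and 4 and 0 in total RNA for Ph and Sce RNAi under a q of 0.1 and under Benjamini-Hochberg adjustment of the deposited p over all genes or over the 6942 above the pseudocount. For Pc RNAi the count was 2, and 3 at a q under 0.1, where oc was added. The counts of genes called higher in nascent RNA after Ph RNAi in the 4 gene lists were the same without the filter on low signal; other list counts were not rerun.

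No paired analysis was possible because the table holds group means with no replicate columns, and leaving out each replicate was not run for the same reason. The folds of oc, Vsx1 and tup rest on low mock signal, and their size is uncertain.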

Other observations

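Beyond the nearest neighbours, a few genes farther from the regulators had raised values; they were chosen after their values were seen. Of the 79 genes reported here whose models lie within 100 kb of a regulator, 3 rose and 0 fell in nascent RNA labelled Ph RNAi in the authors' deposited table, where 1.69% of all genes were called higher. Near oc these were Nrg, a cell adhesion gene 75.0 kb away, at 6.73 with a q of 0.012, and CG12065, 41.6 kb away, at 3.05 with a q of 0.017, per the authors' deposited table. Near Vsx1 it was CG33080, 95.7 kb away, at 4.59 with a q listed at 0 in the authors' deposited table. None of the 16 genes near tup did so.

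Near Poxm, Obp85a, an odorant-binding protein gene 86.0 kb away, had nascent means of 102 signal units in mock, 4916 in the libraries labelled Ph RNAi and 1378 in those labelled Sce RNAi. Its nascent ratios of 48.4 and 13.6 did not pass, with q of 0.109 and 0.283, per the authors' deposited table. In total RNA its ratio was 1.32 with a q of 0.51 for Ph RNAi, while it rose 9.37-fold for Sce RNAi with a q of 0.018 and 9.82-fold for Pc RNAi with a q of 0.009, per the authors' deposited table. The Obp85a model lies wholly within that of another gene on the same strand, CG45263, so the origin of its signal is uncertain. CG31462, matched to that model by an older name, had a nascent ratio of 18.8 with a q of 0.151 for Ph RNAi, and in total RNA it rose 6.02-fold for Ph RNAi and 21.0-fold for Pc RNAi in the authors' deposited table.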
